A study of Mus musculus with 10 samples.

Results

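The 36 genes described here encode the proteins of the junctions that join Sertoli cells to each other and to germ cells: 14 of tight junctions, 9 of adherens junctions, 10 of desmosomes and 3 of gap junctions. A member was any array feature whose annotation held only the symbol of a listed gene, and a gene with several features was to be represented by the feature whose mean over the 10 arrays was highest. All 36 members were measured, each by 1 feature, of 19661 genes in all. Whole testis RNA of 5 mice with intact Crem (wild type, WT) and of 5 mice lacking it (knock-out, KO) was hybridised to GeneChip Mouse Gene 1.0 ST arrays, with 1 mouse per array, to ask how the testis transcriptome changes without Crem. KO mice were homozygous for a disrupted Crem allele (Crem-/-), in which an inserted neomycin resistance gene spans the alternative DNA-binding domains, in all cells of the animal. Both groups were untreated males of mixed genetic background (129Pas with C57Bl/J), aged 8 weeks and killed at 7 am, which is 0 h after lights on.

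Sertoli cells form the epithelium of the seminiferous tubule. Their tight junctions, together with a belt of actin-anchored adherens junctions called the basal ectoplasmic specialization, desmosomes and gap junctions, make up the blood-testis barrier, which germ cells cross as spermatocytes. A related structure, the apical ectoplasmic specialization, holds elongating spermatids to the Sertoli cell until release. The Crem protein binds the cAMP response element (CRE) in DNA and switches on genes after meiosis, in spermatids, and spermatogenesis in these mice stops at the round spermatid.

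The promoter stretches below run from 250 bases before to 50 bases after the transcription start of RefSeq (build GRCm38.p6, all on the minus strand, written 5′ to 3′ in the direction of the gene). They are shown for Jup, the member that fell most, and for Tjp1, the tight junction member that rose most. Nectin2 is shown as the next largest fall among the 21 members with a promoter here. Of these 21 members, only Nectin2 held a full CRE (TGACGTCA), which is given in capitals.
Jup, chr11:100397741-100398040: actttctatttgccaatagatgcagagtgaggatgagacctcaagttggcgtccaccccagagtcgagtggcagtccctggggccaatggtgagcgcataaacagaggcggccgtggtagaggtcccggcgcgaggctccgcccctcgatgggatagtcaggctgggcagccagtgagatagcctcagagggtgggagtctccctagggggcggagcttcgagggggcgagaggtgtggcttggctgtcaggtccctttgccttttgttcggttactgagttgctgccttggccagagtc
Tjp1, chr7:65371195-65371494: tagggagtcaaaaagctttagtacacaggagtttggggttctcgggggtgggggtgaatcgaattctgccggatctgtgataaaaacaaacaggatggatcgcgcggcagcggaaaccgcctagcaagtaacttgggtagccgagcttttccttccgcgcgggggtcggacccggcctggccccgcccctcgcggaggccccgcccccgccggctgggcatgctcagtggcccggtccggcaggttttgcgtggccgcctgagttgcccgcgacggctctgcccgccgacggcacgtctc
Nectin2, chr7:19749524-19749823: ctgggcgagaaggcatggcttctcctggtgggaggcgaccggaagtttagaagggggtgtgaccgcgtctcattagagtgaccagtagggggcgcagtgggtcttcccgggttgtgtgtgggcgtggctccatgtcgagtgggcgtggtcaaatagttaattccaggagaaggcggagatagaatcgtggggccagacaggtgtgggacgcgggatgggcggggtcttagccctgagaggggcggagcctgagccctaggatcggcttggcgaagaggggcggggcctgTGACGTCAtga
The CRE of Nectin2 lay 40 to 47 bases into the transcript, counting the start as 1. On either strand the full site was found in 588 of 32851 mouse promoters of this length (1.79%), and in 1 of the 29 promoters that the table held for 21 members. The shorter site TGACG, which the full site contains on both strands, stood in 20.8% of all promoters and in 8 of the 29 promoters of members (27.6%), each of a different member. Of the 21 members, it was found for 5 of 10 that rose, 2 of 4 that fell (Cldn3 and Nectin2) and 1 of 7 that did not pass the test. A match describes these letters in this window and is no evidence of binding.

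Crem itself was at 10.89, 11.04, 10.96, 10.93 and 10.94 on the log2 scale of the arrays in WT replicates 1 to 5 and at 9.29, 9.29, 9.41, 9.01 and 9.18 in KO replicates 1 to 5. The groups did not overlap, with a change of -1.71 ± 0.07 (SE, n = 5 per group), and the feature averages probes along the whole gene, including parts that were left intact. All 8 markers of elongating spermatids fell, among them the protamine Prm1 (-5.52) and the sperm tail anchor protein Akap4 (-5.49), and their summed linear signal was 74222 to 89396 in WT and 5548 to 11907 in KO. Within KO, the mean of these markers differed from the WT mean by -3.29 log2 units in each of replicates 2 and 3 and by -5.51 to -4.40 units in the other arrays, so counts are also given without these replicates. In whole testis, fewer cells of a type and less RNA per cell cannot be told apart, nor can a rise of other cell types from the loss of late spermatids. The RNA quality scores in the study's sample table were slightly higher for every scored adult KO extract than for every WT one, so quality and genotype cannot be told apart.

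Of the 36 members, 17 rose in KO testis and 6 fell in limma's moderated test with Benjamini-Hochberg adjustment over all 25689 features (adjusted p under 0.05, two-sided), and 13 did not pass it. Among all genes 31.1% rose, 13.2% fell and 44.3% changed either way, against 47.2%, 16.7% and 63.9% of the members. The WT and KO arrays did not overlap for 15 members (41.7%, 32.7% of all genes), of which 10 rose and 5 fell. The median log2 change, KO minus WT, was 0.13 over the members and 0.07 over all genes. Changes of at least 1 log2 unit were rare, with Jup and Dsg1b, both lower, as the members that reached it. Of all genes 5.73% did so, 4.36% lower and 1.37% higher. Without KO replicates 2 and 3, 15 members rose and 5 fell, and of all 19661 genes 6018 rose and 2553 fell.

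The junction types differed in their counts. In tight junctions 7 of 14 members rose and 1 fell (median 0.21), in adherens junctions 6 of 9 rose and 2 fell (median 0.31), and all 3 gap junction members rose (median 0.36). In desmosomes 1 of 10 rose and 3 fell, with a median of -0.01 and a mean of -0.27. Of all genes 31.1% rose, 13.2% fell and 44.3% changed either way, and the desmosomal share that changed (40.0%) was near the last. The difference between the types was not tested, and these counts and medians are a description. The gap junction members overlapped between WT and KO in all 3 cases, whereas 7 of 9 adherens, 4 of 10 desmosomal and 4 of 14 tight junction members did not overlap. Of all genes 32.7% did not overlap, and the desmosomal (40.0%) and tight junction (28.6%) shares were near that.

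**Figure D1:**
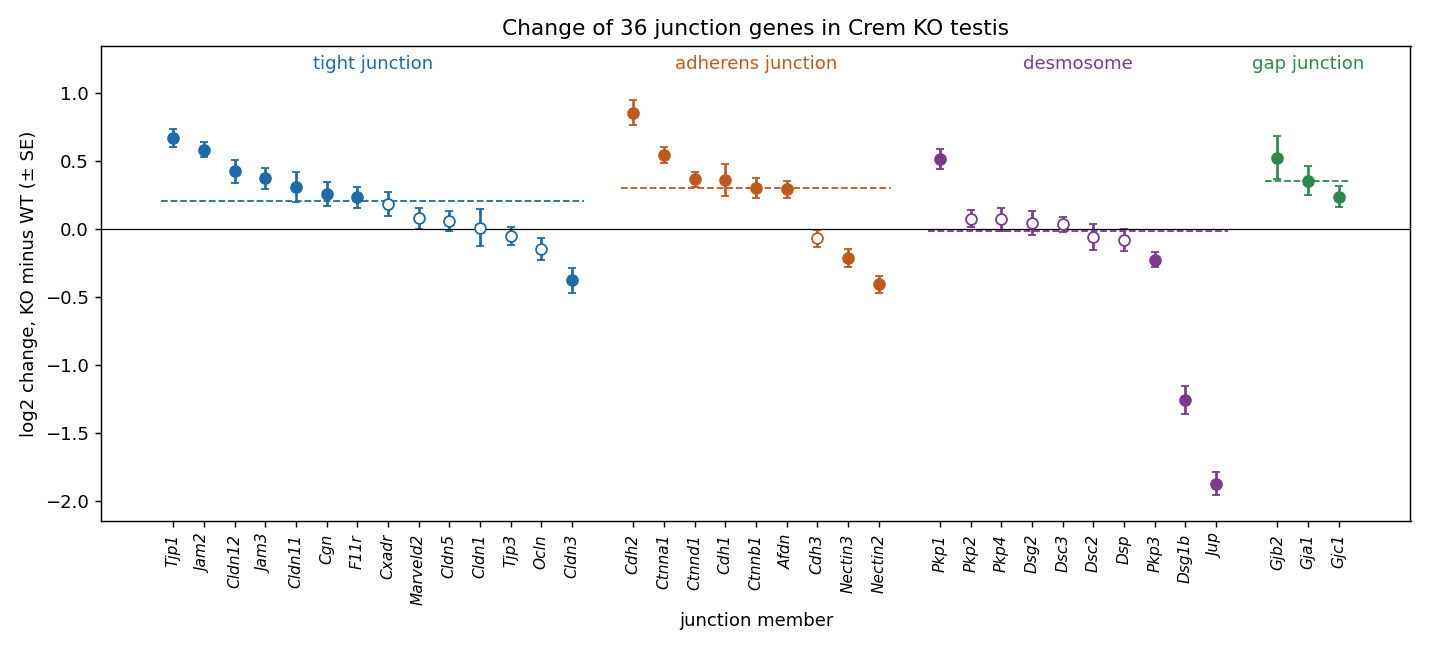
Change in the log2 level of each junction gene, KO minus WT (vertical axis, in log2 units, bars are the standard error of the limma fit, n = 5 per group), by junction type, with filled points for genes past the test and a dashed line at the median of each type. Tight (11 of 14), adherens (6 of 9) and gap junction genes lie mostly above 0, while Jup (-1.87) and Dsg1b (-1.25) lie far below every other gene shown. Of all 19661 genes, 12112 had a change above 0.

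Among the tight junction genes the rise was largest for Tjp1 (ZO-1), the scaffold that ties the membrane proteins to actin. Tjp1 was measured at 9.84, 9.80, 9.95, 9.76 and 9.72 in WT replicates 1 to 5 and at 10.60, 10.43, 10.43, 10.39 and 10.57 in KO replicates 1 to 5. Every KO array exceeded every WT array, and the change was 0.67 ± 0.07, or 1.59-fold (limma adjusted p = 2.11e-06). Jam2, an adhesion molecule of the immunoglobulin family that Sertoli and germ cells carry, was at 9.20, 9.22, 9.30, 9.36 and 9.26 in WT and at 9.95, 9.79, 9.83, 9.85 and 9.84 in KO. The groups were far apart relative to their spread, with a change of 0.58 ± 0.06 (adjusted p = 1.69e-06). Its relative Jam3, which spermatids need to polarise, was at 9.13, 9.14, 8.91, 9.11 and 9.17 in WT and at 9.52, 9.44, 9.30, 9.68 and 9.40 in KO. The lowest KO array stood above the highest WT array, and the change was 0.38 ± 0.08 (adjusted p = 0.00163). F11r (JAM-A), the third of the family, rose by 0.24 ± 0.08 (adjusted p = 0.0251), although KO replicate 2 at 8.73 lay within the WT range of 8.64 to 8.84. The call of F11r was lost in 7 of 22 alternative fits, among them without KO replicate 1 (0.22), 3 (0.21) or 4 (0.21) or WT replicate 5 (0.21).

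The claudins, which form the sealing strands, did not move together. Cldn12 was at 7.04, 7.38, 7.27, 7.24 and 7.19 in WT and at 7.85, 7.60, 7.69, 7.43 and 7.69 in KO. All KO arrays were higher than all WT arrays, with a change of 0.43 ± 0.08 (adjusted p = 0.00105). Cldn3, which in the mouse marks newly formed strands of the barrier, went the other way and was the tight junction member that fell. Its levels were 7.83, 8.07, 7.92, 7.73 and 7.70 in WT and 7.30, 7.34, 7.55, 7.72 and 7.47 in KO, so that KO replicate 4 fell within the WT range while the others lay below it. The change was -0.37 ± 0.09 (adjusted p = 0.00506) and missed the threshold with batch as a block (-0.30). Cldn5 (0.06 ± 0.07) and Cldn1 (0.01 ± 0.14) did not pass the test. Cldn5 is the main claudin of endothelium, where other markers did pass it: Tek rose by 2.05 and Cdh5 by 1.15, with 3 of 8 endothelial markers higher and 1 lower (median 0.10). These shares (37.5% and 12.5%) were near those of all genes (31.1% and 13.2%).

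Cldn11, the defining claudin of the Sertoli cell barrier, is described in full although its values were seen first. It was at 9.84, 9.84, 9.81, 9.90 and 9.90 in WT and at 10.27, 9.72, 10.25, 10.50 and 10.12 in KO. The SD was 0.04 in WT and 0.29 in KO, where replicate 2 lay below and the other 4 arrays above every WT array. The change of 0.31 ± 0.11 passed narrowly (adjusted p = 0.0385), and the call was lost on leaving out any array other than KO replicate 2 (0.23 to 0.33) and on centring the arrays on housekeeping genes (0.24).

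Of the remaining tight junction members, the adaptor Cgn (cingulin) rose by 0.26 ± 0.09 (adjusted p = 0.0301), with KO replicate 2 inside the WT range of 8.79 to 9.01 and the other KO arrays between 9.06 and 9.45. Its call was lost in 8 of 22 alternative fits. Among them were those without KO replicate 1 (0.19) or 3 (0.22) and without WT replicate 1 (0.26), 4 (0.23) or 5 (0.26). Ocln (occludin) changed by -0.15 ± 0.08, Tjp3 (ZO-3) by -0.05 ± 0.07, Marveld2 (tricellulin, the seal where 3 cells meet) by 0.08 ± 0.08 and the adhesion receptor Cxadr by 0.18 ± 0.09, and none of these passed the test. Cxadr did pass it without KO replicate 2 (0.25). That replicate, the sole array of batch 1, was the lowest KO array for 8 of the 17 members that rose and for 4 of the 7 in tight junctions. Each of the 7 members that rose with overlapping groups had 4 KO arrays above every WT array. The remaining KO array was replicate 2 for 5 of them (Cldn11, F11r, Cgn, Ctnnb1 and Gjc1) and replicate 5 for Gja1 and Gjb2. The same count over all genes was not made. Without KO replicate 2, 6559 of all genes rose, against 6106 with it. Without KO replicate 2 the tight junction median was 0.28.

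In adherens junctions the rise covered Cdh1, Cdh2 and the catenins. Cdh2 (N-cadherin), the classical cadherin between Sertoli cells and germ cells, was at 10.40, 10.08, 10.08, 10.19 and 10.15 in WT and at 11.19, 11.21, 10.98, 10.76 and 11.06 in KO. The groups did not overlap, and its change of 0.86 ± 0.09 (1.81-fold, adjusted p = 5.03e-06) was the largest rise of the 36 members. Ctnna1 (alpha-catenin), which links the cadherin complex to actin, was at 9.23, 9.05, 9.03, 9.03 and 8.98 in WT and at 9.68, 9.53, 9.58, 9.62 and 9.66 in KO. Again every KO array was higher, by 0.55 ± 0.06 on average (adjusted p = 9.24e-06). Ctnnd1 (p120-catenin), which holds cadherins at the membrane, was at 9.27, 9.20, 9.19, 9.31 and 9.22 in WT and at 9.66, 9.52, 9.55, 9.59 and 9.69 in KO. The change was 0.37 ± 0.06 without overlap (adjusted p = 0.000162).

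Ctnnb1 (beta-catenin), chosen for full description after its values were seen, was at 9.96, 10.02, 9.97, 10.09 and 9.97 in WT and at 10.38, 10.04, 10.38, 10.37 and 10.38 in KO. KO arrays other than replicate 2 were nearly identical and above all of WT, and replicate 2 lay among the WT arrays. The change was 0.31 ± 0.07 (adjusted p = 0.00407). Cdh1 (E-cadherin), likewise chosen after its values were seen, was at 6.68, 6.74, 6.78, 6.23 and 6.14 in WT and at 6.89, 6.87, 6.88, 6.87 and 6.84 in KO. Its WT arrays split by batch, with the 3 of batch 2 high and the others low, so that the change of 0.36 ± 0.12 (adjusted p = 0.0241) was 0.15 within batch 2 and 0.73 within batch 4. It missed the threshold in 5 of 22 alternative fits, among them without WT replicate 4 (0.29) or 5 (0.27), the low arrays. Cdh3 (P-cadherin) changed by -0.07 ± 0.06 and did not pass the test.

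The nectins fell while afadin, the protein that anchors them to actin, rose. Nectin2, which Sertoli cells carry at the apical ectoplasmic specialization, was at 7.90, 7.97, 7.88, 7.88 and 7.98 in WT and at 7.41, 7.46, 7.70, 7.53 and 7.49 in KO. All KO arrays were lower, and the change was -0.40 ± 0.06 (adjusted p = 0.000179), with -0.22 within batch 2 and -0.51 within batch 4. Its partner on spermatids, Nectin3, was at 11.70, 11.42, 11.46, 11.60 and 11.49 in WT and at 11.33, 11.38, 11.21, 11.38 and 11.34 in KO. The groups were separate but close, with a change of -0.21 ± 0.07 (adjusted p = 0.0223). The call of Nectin3 was lost in 7 of 22 alternative fits, among them without WT replicate 1 (-0.17), WT replicate 4 (-0.19) or KO replicate 3 (-0.18). Afdn (afadin) rose by 0.29 ± 0.06 (adjusted p = 0.00206), from 8.99 to 9.09 in WT arrays to 9.21 to 9.47 in KO arrays. The difference Afdn minus Nectin2, taken in each array relative to the WT mean, was between -0.06 and 0.09 in WT and between 0.40 and 0.91 in KO.

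**Figure D2:**
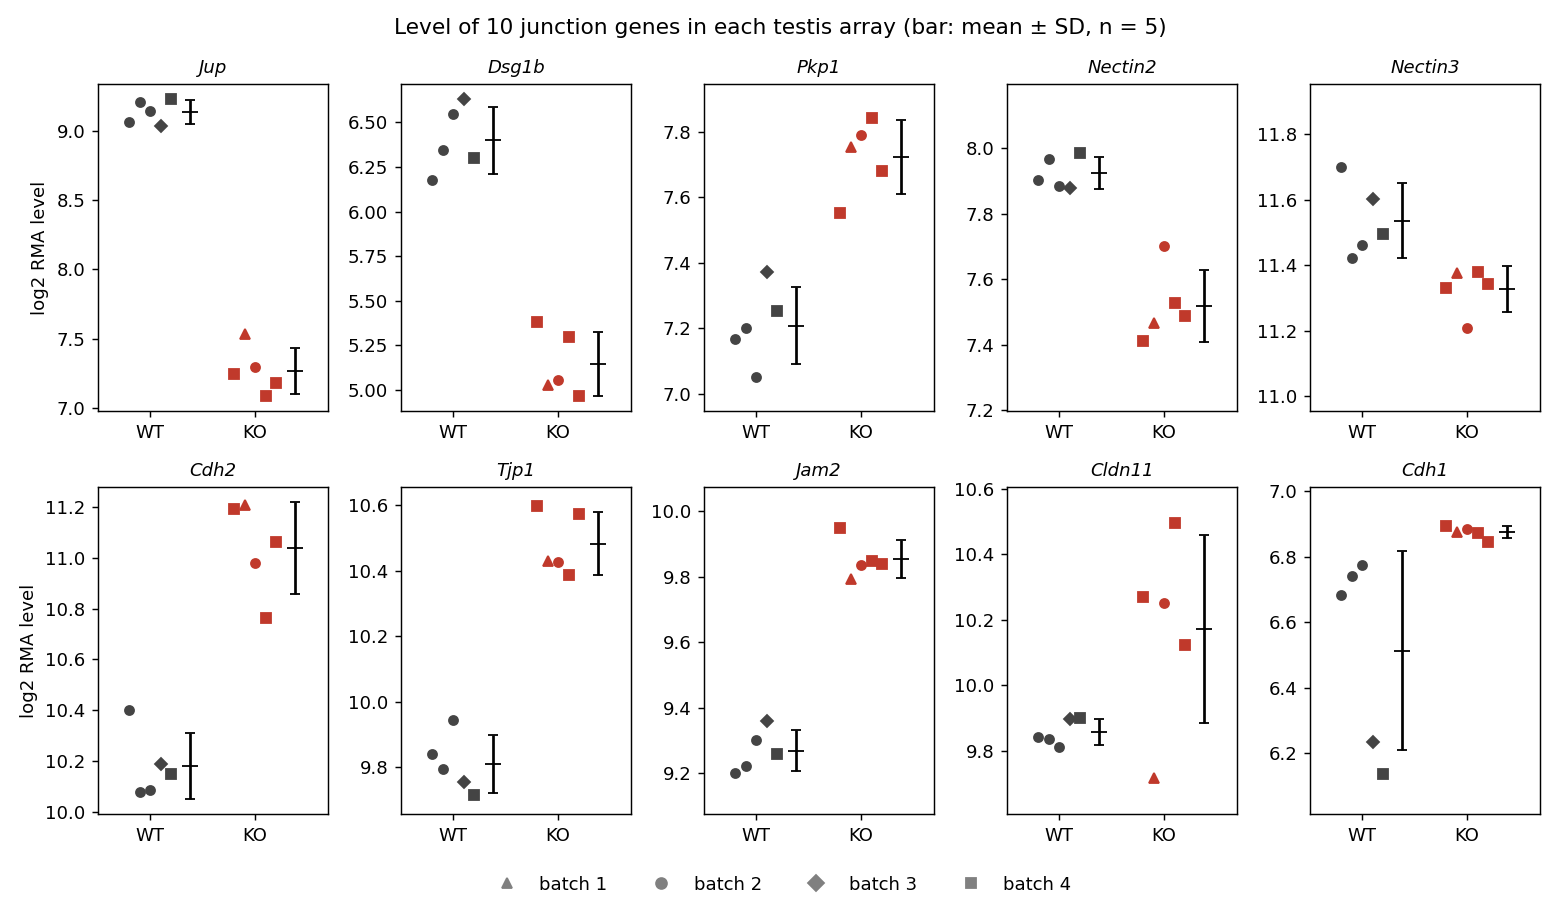
Log2 RMA level (vertical axis) of 10 junction genes in each of the 5 WT and 5 KO testis arrays, with the point shape giving the batch and the bar the mean ± SD of a group. Jup, Dsg1b and Nectin2 are lower and Tjp1, Jam2 and Cdh2 higher in every KO array, KO replicate 2 is the low array of Cldn11 (9.72), and Cdh1 splits by batch in WT.

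In desmosomes, junctions that couple cells through intermediate filaments, the largest change of all members was found. Jup (plakoglobin), a catenin that serves both desmosomes and adherens junctions, was at 9.07, 9.21, 9.14, 9.03 and 9.23 in WT and at 7.24, 7.53, 7.30, 7.08 and 7.18 in KO. No KO array came near a WT array, and the change was -1.87 ± 0.08, which is 3.66-fold lower (adjusted p = 3.31e-10). It was -1.84 within batch 2 and -2.07 within batch 4. Jup and Ctnnb1 are close relatives that bind the same cadherin tails, and they moved in opposite directions: Jup minus Ctnnb1, relative to the WT mean, was -0.19 to 0.13 in WT arrays and -2.42 to -1.65 in KO arrays. Dsg1b, a desmosomal cadherin, was at 6.18, 6.34, 6.55, 6.63 and 6.30 in WT and at 5.38, 5.03, 5.06, 5.30 and 4.97 in KO. The groups did not overlap, with a change of -1.25 ± 0.10 (2.39-fold lower, adjusted p = 3.27e-07), and the KO mean of 5.15 lay below the 25th percentile of all values, 5.95. Near-identical desmoglein genes can share its probe signal, and Dsg1c also fell, by 0.51.

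The plakophilins, which cluster desmosomal cadherins on the inner side of the membrane, diverged. Pkp1 was at 7.17, 7.20, 7.05, 7.37 and 7.25 in WT and at 7.55, 7.75, 7.79, 7.84 and 7.68 in KO. It was higher in every KO array, by 0.52 ± 0.07 (adjusted p = 8.52e-05), and was the only desmosomal member that rose. Pkp3 was at 7.20, 7.31, 7.24, 7.23 and 7.27 in WT and at 7.11, 7.07, 6.98, 6.94 and 7.03 in KO. It was lower in every KO array, by a small margin, with a change of -0.22 ± 0.05 (adjusted p = 0.00484). Pkp1 minus Pkp3, relative to the WT mean, was -0.15 to 0.18 in WT and 0.49 to 0.94 in KO. Pkp2 (0.08 ± 0.06), Pkp4 (0.07 ± 0.08) and the filament anchor Dsp (desmoplakin, -0.08 ± 0.08) did not pass the test. Neither did the cadherins Dsg2 (0.05 ± 0.09), Dsc2 (-0.06 ± 0.10) and Dsc3 (0.04 ± 0.06), whose WT means of 5.65, 5.69 and 5.06 were under the 25th percentile of all values, where a change is harder to detect. Of 7 keratinocyte markers, measured because desmosomes abound in skin, only Trp63 changed (0.20).

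The gap junction genes rose by modest amounts and all with overlapping groups. Gja1 (connexin 43), the main connexin between Sertoli cells and germ cells, was at 9.97, 9.80, 9.78, 9.81 and 9.35 in WT and at 10.18, 10.004, 10.30, 10.05 and 9.94 in KO. Only KO replicate 5 lay under the highest WT array, and the change was 0.36 ± 0.11 (adjusted p = 0.0164), with 0.46 within batch 2 and 0.71 within batch 4. Gjb2 (connexin 26) was dim, at 5.55, 6.003, 5.28, 5.56 and 5.36 in WT and at 6.02, 6.33, 6.30, 6.20 and 5.54 in KO. KO replicate 5 again fell within the WT range, and the change was 0.53 ± 0.16 (adjusted p = 0.0165). Gjc1 (connexin 45) was at 7.52, 7.74, 7.52, 7.83 and 7.76 in WT and at 8.12, 7.83, 7.91, 7.85 and 7.87 in KO. Its KO replicate 2 was level with the highest WT array, and the change was 0.24 ± 0.08 (adjusted p = 0.028). Without KO replicates 2 and 3 the calls of Gja1 (0.32) and Gjb2 (0.37) were lost. Gjb2 lost its call in 4 of 21 alternative fits in all. Gjc1 lost it in 7 of 22, among them without KO replicate 1 (0.19), WT replicate 1 (0.20) or WT replicate 3 (0.20). Leydig cells, which also carry connexin 43, had 5 of 6 markers higher (83.3%, against 31.1% of all genes, median 0.57). Among them were the steroid enzymes Hsd17b3 (1.08) and Cyp11a1 (0.84). The part of Leydig cells in the result was not tested.

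Markers of the cell that builds the barrier were measured beside the junction genes. Of 15 Sertoli cell markers 7 rose and 0 fell (median 0.24). The share of them that changed, 46.7%, was near the 44.3% of all genes, of which 31.1% rose. Shbg (0.67) and Kitl (0.36) changed most, while the transcription factors Sox9 (0.13), Wt1 (0.13) and Gata4 (0.07) did not pass the test. The summed linear signal of the 15 markers was 12242 to 13759 in WT and 14436 to 17661 in KO. The mean over the list, relative to WT, was 0.10 in KO replicate 2 and up to 0.33 in the other KO arrays. The mean over the 14 tight junction members was likewise lowest in that array, at 0.08, and at most 0.24 in the others, while that over the 9 adherens junction members was 0.19 to 0.29. KO replicate 2 also had the lowest KO mean of the housekeeping genes, at -0.03, against up to 0.11 in the others. The same held for spermatocyte, spermatogonial, Leydig cell, peritubular myoid and macrophage markers. It did not hold for endothelial, keratinocyte, epididymal and elongating spermatid markers, so the low array was not particular to junction genes and Sertoli markers. The desmosomal mean was -0.31 to -0.26 in KO and -0.01 to 0.02 in WT. Jup (-1.87) and Dsg1b (-1.25) weigh most in that mean, since 6 of the 10 members did not pass the test and the median change of all 10 was -0.01. The part of Sertoli cell content in these values was not tested.

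Of the other cell types, 5 of 8 spermatocyte markers rose (median 0.25), Meiob (0.82) and Spo11 (0.38) most. Spermatogonial markers had 2 of 8 higher and 1 lower, with Kit at 0.47 and Gfra1 at -0.29. Macrophage markers had 6 of 7 higher (median 0.51, Adgre1 1.52 and Csf1r 0.61). Peritubular myoid cells had 1 of 7 markers higher (Myh11, 0.21) and 1 lower (Actg2, -0.63), and epithelium of epididymis and rete testis had 1 of 10 higher (Epcam, 0.45) and 2 lower (Krt18 at -0.33 the larger). The red blood cell marker measured, Alas2, fell by 0.68. These lists share whole testis as their source with the junction genes, and their part in the junction results was not tested.

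**Figure D3:**
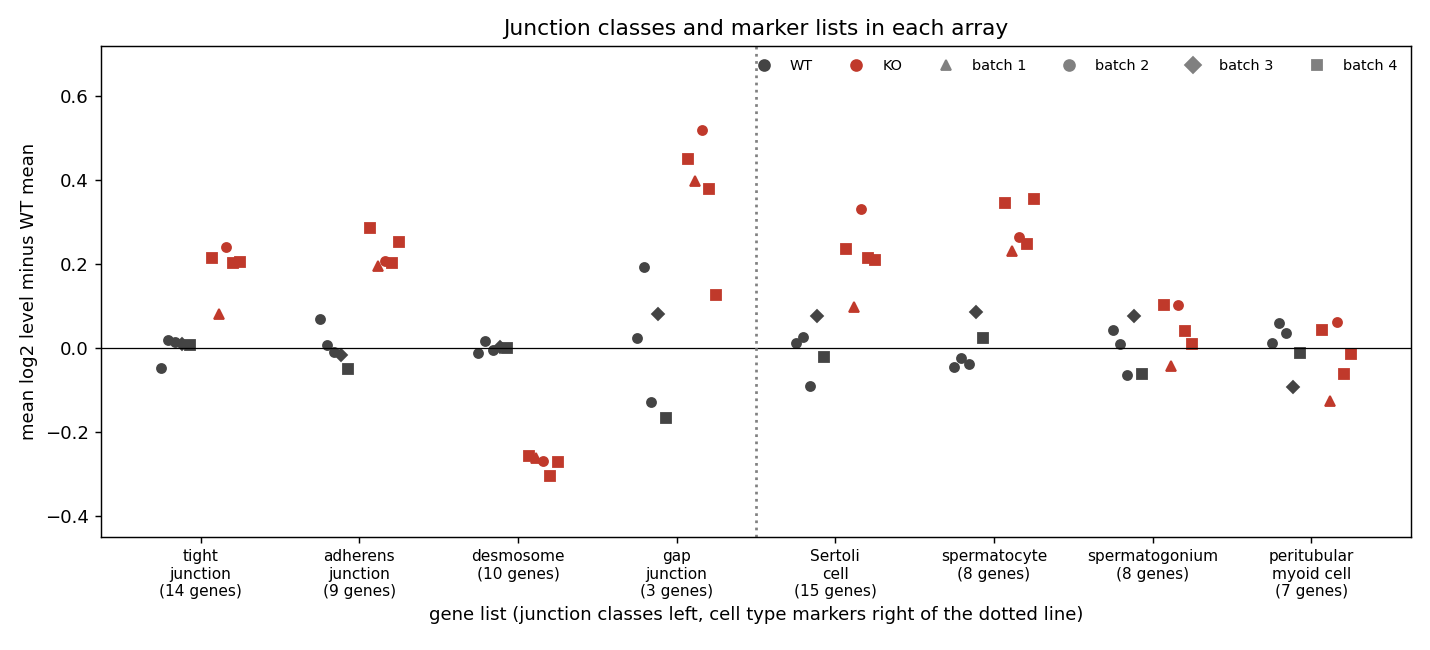
Mean log2 level of each junction type and of 4 cell type marker lists in every array (vertical axis, log2 units relative to the WT mean), with WT in grey, KO in red and the point shape giving the batch. KO arrays lie above WT for tight junctions (0.08 to 0.24), adherens junctions (0.19 to 0.29) and Sertoli cell markers (0.10 to 0.33). They lie below it for desmosomes (-0.31 to -0.26), where Jup and Dsg1b weigh most in the mean and the median change was -0.01. KO replicate 2 is lowest among KO arrays for tight and adherens junctions and for all 4 marker lists shown.

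Of 85 further genes of the same junctions, 74 were measured, of which 16 rose and 12 fell (21.6% and 16.2%, median -0.01). In other tight junction genes 5 of 28 rose and 1 fell. Patj, a scaffold of the Crumbs polarity complex, rose by 1.04 ± 0.07, and Cgnl1 (paracingulin) rose by 0.43 ± 0.09. Cldn13, a claudin of rodents, changed most of all junction genes examined, at -2.52 ± 0.08. It fell from a WT mean of 7.99 ± 0.15 (SD) to 5.47 ± 0.11 in KO. In other genes of adherens junctions and the ectoplasmic specialization 9 of 24 rose and 5 fell.

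Among these, Vcl (vinculin, 0.59 ± 0.05), the actin crosslinker Actn1 (0.50 ± 0.08) and Lmo7 (1.03 ± 0.16), which binds afadin and actinin, rose. Actn4 (-0.65 ± 0.06), the alpha-T-catenin gene Ctnna3 (-1.28 ± 0.09), the afadin partner Ssx2ip (-0.75 ± 0.05) and Nectin4 (-0.36 ± 0.07) fell. Of the other alpha-catenins, Ctnna1 rose, as given above, and so did Ctnna2 (0.36 ± 0.07), which is named after its values were seen. In other desmosome genes 0 of 6 rose and 2 fell, led by Dsg1c (-0.51 ± 0.08), and in other gap junction genes 2 of 16 rose and 4 fell, with Gja4 (connexin 37, a connexin of vessels) at 0.39 ± 0.06.

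The sample titles assigned the arrays to 4 batches without saying of what, and batch 2 held 1 KO and 3 WT arrays and batch 4 held 3 KO arrays and 1 WT array. All 23 members that changed had the same direction within batch 2, within batch 4 and with batch as a block. The arrays of these batches also entered the fit that gave the calls, so this agreement is no separate test. The same count over all genes was not made. Within batches Tjp1 changed by 0.57 and 0.80, Cdh2 by 0.79 and 0.85, and Dsg1b by -1.30 and -1.09. The other batches held 1 array each and give no value of their own. With batch as a block, the change therefore came from batches 2 and 4 alone, without KO replicate 2. F11r and Gja1 were larger in that fit, at 0.37 and 0.58.

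**Figure D4:**
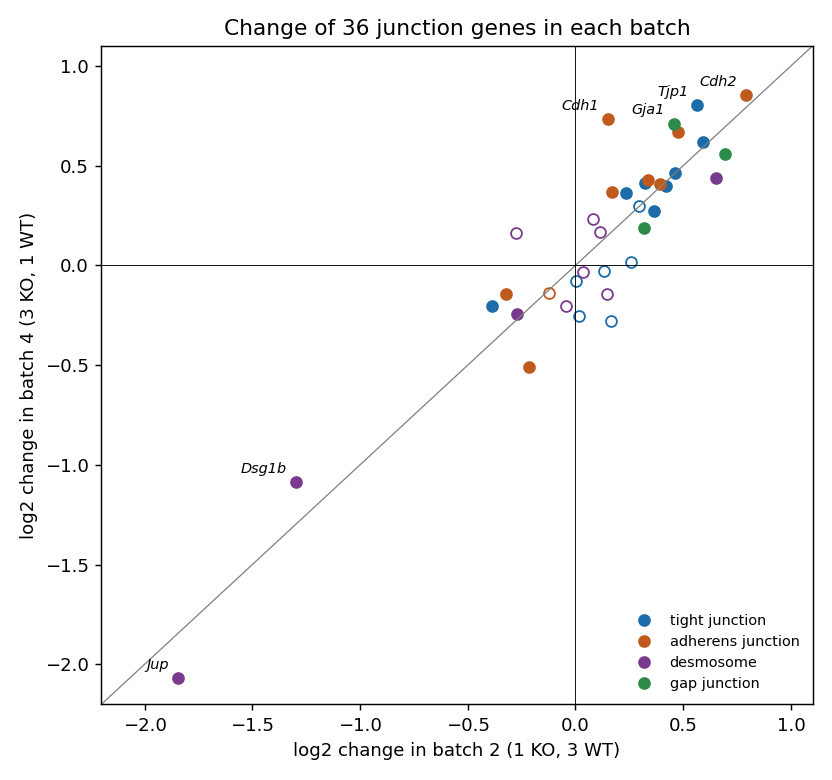
Log2 change of each junction gene, KO minus WT, within batch 4 (3 KO arrays, 1 WT array, vertical axis) against that within batch 2 (1 KO array, 3 WT arrays, horizontal axis), with filled points for genes past the test in all arrays and a diagonal line of equal change. All 23 filled points share their sign in both batches, and Cdh1 lies farthest above the line, at 0.15 in batch 2 and 0.73 in batch 4. The arrays of both batches also gave the calls, so the shared sign is no separate test.

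Chromosome 18 carries Crem and also 6 members: Cdh2, Ctnna1, Dsg1b, Dsg2, Dsc2 and Dsc3. Of these Cdh2 and Ctnna1 rose, Dsg1b fell and 3 did not pass the test. On this chromosome 242 of 466 genes changed (51.9%), against 44.3% of all genes. In mice of a mixed background, alleles linked to the disrupted locus and the loss of Crem cannot be told apart for these genes.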

How the data were processed

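The deposited values are log2 expression levels of whole testis RNA. The authors made them by RMA, run in the Bioconductor package XPS (core transcripts, antigenomic background, quantile normalisation between arrays). The package version and genome build are not given in the sources used here. RMA averages the probes of a transcript, so isoforms are not resolved. Of 35557 rows 9868 were empty, which left 25689 features. Exactly 1 symbol was annotated for 20777 of them, of which 20696 matched RefSeq (GRCm38.p6).

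Differences between KO and WT were fitted with limma 3.58.1 (R 4.3.3), using lmFit and eBayes with no covariate, and Benjamini-Hochberg adjustment ran over the 25689 features, with a call at an adjusted p under 0.05. The fit was tested on simulated data. Precision is limited by the 5 arrays per group (median SE 0.0755). The members and lists were chosen with earlier results of these data known. Every member is named. Values of every array are given for the 4 members of a junction type with the largest change past the test, for those that moved against the median of their type, and for genes stated to be chosen after their values were seen. Of 92 marker genes 85 were measured, and 9 of 14 housekeeping genes (4 higher, 2 lower in KO). The others were not analysed here. Alternatives were other scalings, batch as a block or alone, array weights, other filters and leaving out arrays.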

Additional observations from a re-analysis of the deposited data

Results flagged for a closer look

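In 5 of the 74 sets of 5 arrays examined (each member and Crem, in WT and in KO), 1 array lay far from the other 4 by Dixon's criterion, which chance alone meets in about 1 set in 20. KO replicate 2 was the low array for F11r, at 8.73 against 9.001 to 9.11 in the other KO arrays, and for Ctnnb1, at 10.04 against 10.37 to 10.38. Jam3 was low in WT replicate 3, at 8.91 against 9.11 to 9.17. Ctnna1 was high in WT replicate 1, at 9.23 against 8.98 to 9.05. Nectin3 was low in KO replicate 3, at 11.21 against 11.33 to 11.38.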

How the results depend on the processing

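No paired analysis was possible because replicate numbers follow the order of deposition and pair no mice. Of the 23 members called, 6 (Tjp1, Jam2, Cdh2, Ctnna1, Jup and Dsg1b) kept the call in each of the 22 alternatives that tested them, which were 21 for Dsg1b because the filter on the lowest 25% of features left it out. In all, 14 kept it in all but the fits to batch 2 or batch 4 alone. The other 9 lost it elsewhere, and 0 changed sign. Of members not called, Ocln passed on housekeeping centring (-0.22) and Cxadr with batch as a block (0.30), with array weights (0.24) and without KO replicate 2, alone or with replicate 3 (0.25 each). The block fit also draws nothing from KO replicate 2, so for Cxadr it is not separate from the fits without that array.

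In batch 2 alone 8 members rose and 2 fell (2208 and 1552 of all 19661 genes), and in batch 4 alone 7 and 3 (1902 and 1584 genes). Fewer arrays enter these fits, and the lone array of a group is assumed to vary like the others. For the other junction genes, counted under each alternative after the data were seen, these were 6 and 5, and 7 and 5. Leaving out arrays gave 13 to 18 members higher and 5 to 6 lower, and 14 to 18 and 8 to 13 other junction genes. Over all genes the same fits gave 5392 to 6559 higher and 2388 to 2732 lower. The tight junction median was 0.14 on housekeeping centring, 0.30 with batch as a block, 0.29 in batch 4 and 0.18 to 0.28 on leaving out arrays. The adherens junction median was 0.38, 0.17 and 0.41 with the block, in batch 2 and in batch 4. The desmosome median was -0.082 on housekeeping centring and -0.088 in batch 4, and the gap junction median was 0.58 with the block and 0.56 in batch 4. Housekeeping centring shifted the median of all genes by -0.07, to 4230 genes higher and 3232 lower, against 6106 and 2599. Of called genes, 70.1% were higher, 56.7% with that centring, 58.7% in batch 2 and 54.6% in batch 4. The cause of these shifts was not tested. Low signal limits Cldn1, Dsg2, Dsc2, Dsc3 and Gjb2.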
